A study of Caenorhabditis elegans with 2 samples.

Results

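Chromatin immunoprecipitation followed by sequencing (ChIP-seq) of SNPC-4 was examined at 5 genes of the *Caenorhabditis elegans* piRNA pathway, *snpc-4*, *prde-1*, *tofu-4*, *tofu-5* and *prg-1*, out of 19973 protein-coding genes on the nuclear chromosomes. The genes were chosen by name and all 5 were found in the annotation. For each of them, ChIP-seq summits were collected within 500 bp of the 5′ end and, more widely, within 20 kb of it. A summit is the position of highest enrichment inside an interval of a peak list. The gene that encodes the immunoprecipitated protein could thus be set beside the genes of its partners and of the Piwi protein.

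The worms were whole young adults, pooled over both sexes per the labels, of strain OP179, genotype unc-119(ed3) III; wgIs179. The integrated transgene wgIs179 supplied SNPC-4 with GFP and FLAG fused to its C-terminus, and *unc-119* is the usual rescue marker for such insertions. The genotype names no change of the endogenous *snpc-4*, so that reads of the transgene copy and of the endogenous gene cannot be told apart wherever the transgene carries the same sequence. How far that copy reaches beyond the gene is not given in the labels. Signals, ranks and counts at *snpc-4* are thus not known to be on a par with those at other genes. All samples belonged to 1 group of 2 biological replicates, a single integrated line stood behind both, and no untagged or untreated sample was analysed here. Since whole animals were used, few cells with strong binding and many cells with weak binding give the same signal.

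Piwi-interacting RNAs (piRNAs) are small germline RNAs that guide the Argonaute protein PRG-1 to foreign and some endogenous transcripts. In *C. elegans* most are transcribed as separate short RNA polymerase II units from clusters on chromosome IV, and their promoters carry a conserved upstream motif. SNPC-4, the DNA-binding subunit of the snRNA-activating complex SNAPc, acts at these promoters together with PRDE-1, TOFU-4 and TOFU-5, and the 4 proteins are known as the upstream sequence transcription complex, USTC. Outside the clusters, SNPC-4 is known for its role at small nuclear RNA and spliced leader RNA genes. The 4 USTC genes and *prg-1* are protein-coding genes outside the chromosome IV clusters.

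Of the 5 genes, *snpc-4* alone had a summit of the thresholded list within 500 bp of its 5′ end, and none of the others did. The thresholded list was the one that passed the authors' filter on irreproducible discovery rate (IDR), a measure of replicate reproducibility. That was 1 of 5 genes, beside 5.46% of all protein-coding genes. In the pooled list, whose label says that it mixes peaks with background, 3 of 5 had a summit there (*snpc-4*, *prde-1* and *prg-1*), beside 30.0% of protein-coding genes. The same 3 genes had one in the list of replicate 1, beside 29.8%. In replicate 2, *tofu-4* joined them as the fourth, beside 32.8%. *tofu-5* had no summit within 500 bp in any of the 4 lists. With 5 genes chosen by name and no second group of samples, these counts are descriptions and were not tested.

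The lists differ in what an entry is, which bears on every count given here. The thresholded list held 2345 entries with a signal from 41.5 to 3238 and a median of 60.9, where the signal is the enrichment value given by the authors' peak caller. These were exactly the 2345 strongest of the 30000 pooled entries, with the same intervals, summits and signals, so that the 2 lists differ in their cut-off alone. A place in the thresholded list thus follows the pooled signal and does not show that each replicate ranked the peak high. Replicate 1 had 27573 entries (median signal 6.56) and replicate 2 had 30000 (median signal 6.31). A signal is therefore read within its own list, and values of the pooled list are on another level than those of the replicates. Read depths are unknown.

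**Figure D1:**
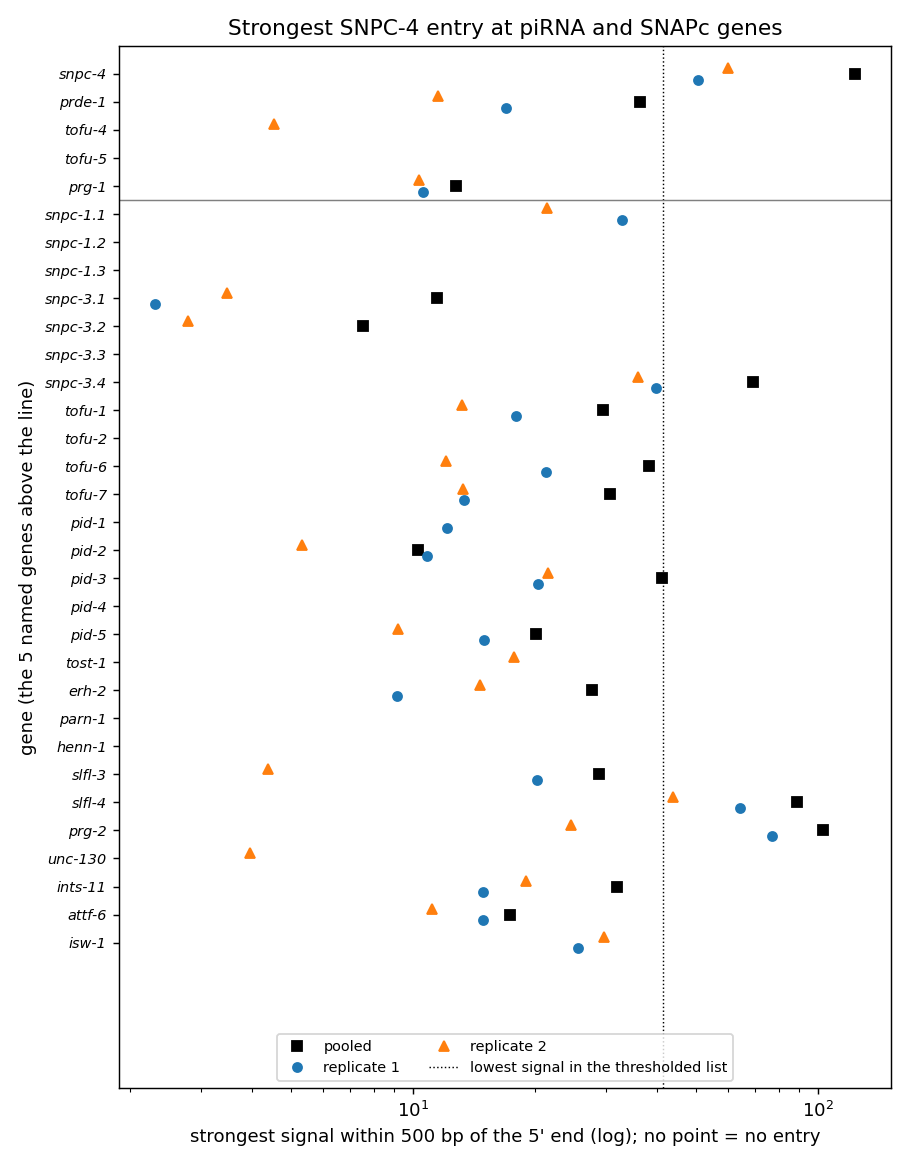
Strongest signal within 500 bp of the 5′ end (horizontal, log scale) for the 5 named genes above the line and 27 other piRNA and SNAPc genes below it, as black squares for the pooled list, blue circles for replicate 1 and orange triangles for replicate 2. A gene without a point had no entry in that list. The dotted line is the lowest thresholded signal, 41.5, which *snpc-4* passed with 123.8 and *prde-1* missed with 36.3.

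The peak at *snpc-4* itself lay at chrI:8962031-8962184 on ce11, and its summit was 190 bp upstream of where the gene starts (chrI:8962322-8966129, plus strand), outside protein-coding genes. Its signal was 123.8 in the thresholded and pooled lists, rank 357 of 30000. In replicate 1 the signal there was 50.4, rank 586 of 27573, and in replicate 2 it was 59.8, rank 361 of 30000. Both replicates thus placed it among their strongest entries. Only 118 of the protein-coding genes (0.591%) had a pooled summit as strong within 500 bp, 245 (1.23%) in replicate 1 and 121 (0.606%) in replicate 2. Chromosome I as a whole had a thresholded summit within 500 bp at 7.40% of its protein-coding genes. The neighbour upstream, *F32H2.11*, is transcribed away from *snpc-4*, and 1439 bp separate the genes.

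Right at the start of *snpc-4* the pooled list held a second, weaker entry. Its summit lay 9 bp downstream of the 5′ end, in the 5′ untranslated region, with signal 31.2 (replicates 17.2 and 23.9). Within 20 kb the thresholded list placed 4 more peaks around the gene. The strongest, signal 209.0 and rank 194 (replicates 135.8 and 82.5), lay 7859 bp downstream, between *spd-2*, a centrosome assembly gene, and *F32H2.10*. The 2 genes are transcribed away from each other, and the summit was 100 bp upstream of the first and 110 bp upstream of the second. A peak 4503 bp downstream had signal 71.3 (replicates 31.8 and 50.5) and fell in a coding exon of *mdt-31*, a Mediator subunit gene.

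The other 2 thresholded peaks near *snpc-4* lay upstream and ranked higher in replicate 1 than in replicate 2. One, 770 bp upstream and between *snpc-4* and *F32H2.11*, had signal 49.9 in the pooled list, 51.4 in replicate 1 (rank 567 of 27573) and 7.29 in replicate 2 (rank 12665 of 30000). It stood in the top 2.06% of replicate 1 and the top 42.2% of replicate 2. The other, 9109 bp upstream, had signal 42.5 (replicates 23.8 and 11.4), close to the lowest value of the list, with ranks of 2567 and 6646. It sat 44 bp into the tRNA-Lys gene *F53B6.t1* within an intron of *F53B6.7*. It was also 41 bp into the noncoding RNA gene *F53B6.11*, which overlaps the tRNA gene on the opposite strand. Only 47.9% of the 32-base words of that interval occur once in the genome, so this peak is uncertain. The 500 bp on either side of the 5′ end of *snpc-4* consist entirely of words that occur once in the reference genome. That genome does not hold wgIs179, so this sequence need not be single-copy in these worms.

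**Figure D2:**
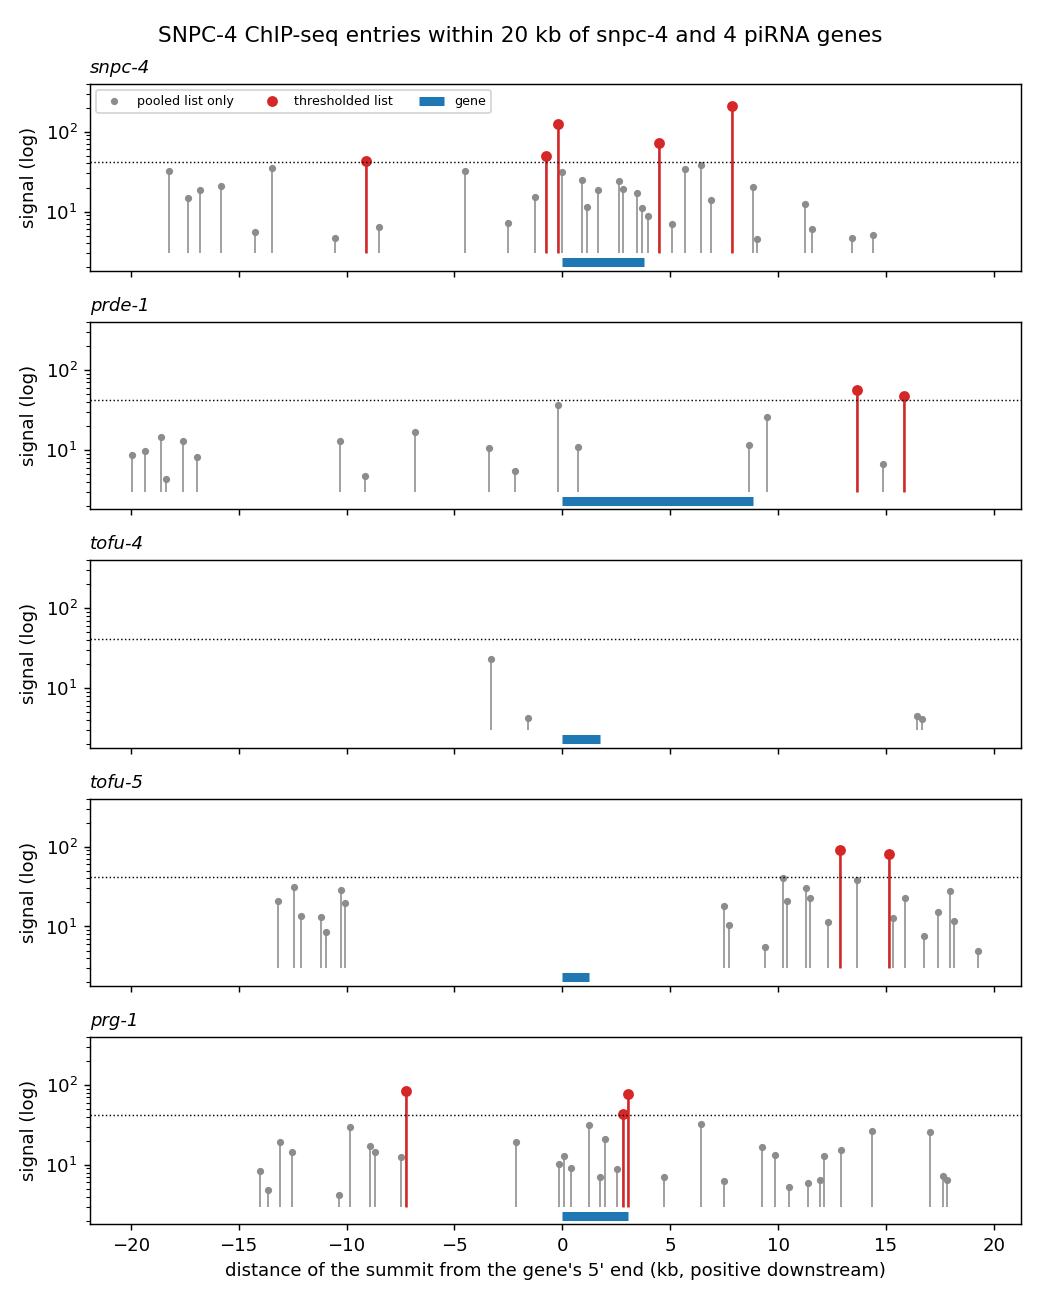
Entries of the pooled list (grey) and of the thresholded list (red) within 20 kb of the 5′ end of each of the 5 genes, with signal on a log scale and distance in kb, positive downstream. The blue bar is the gene and the dotted line the lowest thresholded signal, 41.5. *snpc-4* had 5 red points, *prg-1* 3, *prde-1* and *tofu-5* 2 each and *tofu-4* none.

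*prde-1*, which encodes a nuclear USTC subunit found in foci at the piRNA clusters, had an entry just below the cut-off. The pooled summit lay 213 bp upstream of its 5′ end (chrV:15538244-15547086, plus strand) with signal 36.3, rank 3025, where the thresholded list ends at rank 2345. In replicate 1 the summit lay 133 bp upstream with signal 17.0 (rank 4475), and in replicate 2 it lay 262 bp upstream with signal 11.5 (rank 6542). Both replicates held the entry, among their top 16.2% and 21.8%. A pooled summit as strong lay within 500 bp of 1361 protein-coding genes, 6.81% of them. The gene upstream, *F21A3.4*, runs in the same direction and ends 184 bp before *prde-1*, so the pooled summit fell within the transcribed end of *F21A3.4* and the replicate 1 summit between the genes.

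The nearest thresholded peaks to *prde-1* lay at tRNA genes, 13642 bp and 15819 bp downstream of its 5′ end. The first had signal 56.9 (replicates 12.7 and 29.5), with its summit 16 bp upstream of the tRNA-Asp gene *F28F8.t3*, a gene that overlaps the noncoding RNA gene *F28F8.12* on the opposite strand. The second had signal 47.3 (replicates 9.18 and 30.3), with its summit 33 bp into the tRNA-His gene *F28F8.t2*. Both fell in introns of *acr-18*, an acetylcholine receptor subunit gene, and both ranked higher in replicate 2 (1200 and 1146) than in replicate 1 (6741 and 9826). Of the 32-base words in these intervals 84.0% and 86.0% occur once. Within 20 kb of *prde-1* there were 4 tRNA genes, more than around any of the other 4 genes. The 184 bases between *F21A3.4* and *prde-1* are shown as the whole stretch between the genes, with the 21 bases around the replicate 1 summit in capitals. The pooled and replicate 2 summits lie outside it, in *F21A3.4*. Both tRNA genes are shown with 20 bases on either side, the gene in capitals, because the thresholded peaks of this neighbourhood sit on them. All are from the RefSeq ce11 assembly, 5′ to 3′ on the strand given, at chrV:15538060-15538243 (plus), chrV:15551779-15551890 (minus) and chrV:15554010-15554121 (plus).
prde-1 upstream: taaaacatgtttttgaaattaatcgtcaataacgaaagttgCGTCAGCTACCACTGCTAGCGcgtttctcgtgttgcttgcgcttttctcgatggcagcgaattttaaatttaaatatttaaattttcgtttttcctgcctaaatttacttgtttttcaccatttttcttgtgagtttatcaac
F28F8.t3: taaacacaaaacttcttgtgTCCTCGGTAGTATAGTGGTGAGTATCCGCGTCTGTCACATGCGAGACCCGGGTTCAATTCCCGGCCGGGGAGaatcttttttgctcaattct
F28F8.t2: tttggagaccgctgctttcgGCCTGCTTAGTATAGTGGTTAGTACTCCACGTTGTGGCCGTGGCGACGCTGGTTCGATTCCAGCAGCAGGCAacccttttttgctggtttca

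*tofu-4*, the next USTC gene, stood in a stretch with few entries. It lies at chrI:4824904-4826639 on the minus strand, 432 bp from the meiotic chromosome axis gene *htp-3*, which is transcribed in the opposite direction. Within 500 bp only replicate 2 had an entry, 456 bp upstream with signal 4.53, rank 20915 of 30000. Within 20 kb the lists held 0 thresholded, 4 pooled, 5 replicate 1 and 12 replicate 2 entries, and none of the 4 pooled entries was shared by both replicates. The strongest pooled entry there had signal 23.3 and lay 3321 bp upstream. The nearest thresholded peak was 36602 bp downstream, 255 bp upstream of the ribosomal protein gene *rpl-41.2*, with signal 100.6 (replicates 65.7 and 50.01). At least as many pooled entries lay within 20 kb of 72.2% of protein-coding genes.

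*tofu-5*, the fourth USTC gene, had many entries around it but none at its promoter. It lies at chrI:7069440-7070665 on the plus strand, 253 bp from *nuo-6*, a subunit gene of mitochondrial complex I transcribed in the opposite direction. The nearest pooled summit was 7510 bp downstream, and the nearest thresholded one 12867 bp downstream. That peak had signal 90.3 (replicates 44.7 and 47.3), 267 bp upstream of *mstr-1*. A second, 15135 bp downstream, had signal 79.9 (replicates 44.6 and 25.03) and lay outside protein-coding genes. Within 20 kb there were 25 pooled entries, 25 in replicate 1 and 31 in replicate 2, and 16 of the 25 pooled ones (64.0%) had a summit of each replicate within 200 bp. For comparison, 34.1% of all nuclear pooled entries were shared in that way. That share is not matched for signal or for how closely the entries lie.

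*prg-1*, which encodes the Piwi Argonaute that binds mature piRNAs, had weak promoter entries and stronger ones at its other end. The gene lies at chrI:7585329-7588367 on the minus strand, 212 bp from *D2030.7*, which is transcribed in the opposite direction. Within 500 bp the pooled list had 3 entries, 142 bp upstream with signal 10.2, 87 bp downstream with signal 12.8 and 418 bp downstream with signal 9.14. In replicate 1 there was 1, 140 bp upstream with signal 10.6, and in replicate 2 there were 2, 129 bp and 411 bp downstream with signals of 6.04 and 10.3. The replicates thus had no summit in common there within 200 bp, and 19.2% of protein-coding genes had a pooled summit at least as strong as 12.8. A thresholded peak of signal 76.8 (replicates 35.3 and 40.6) lay 3026 bp downstream, in the untranslated region at the 3′ end of *prg-1*, where *D2030.12* ends from the opposite side. An overlapping interval with its summit 2815 bp downstream, in a coding exon of *prg-1*, had signal 43.5. Both intervals share the same replicate 1 entry, so that they are no independent pair. Another thresholded peak lay 7253 bp upstream of *prg-1* and 156 bp upstream of *wdr-23*, with signal 84.3 (replicates 43.0 and 22.9).

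The number of entries within 20 kb differed between the 5 neighbourhoods. *snpc-4* and *prg-1* had the most in the thresholded, pooled and replicate 1 lists, while in replicate 2 *tofu-5* was between them. *snpc-4* had 5 thresholded, 35 pooled, 29 replicate 1 and 37 replicate 2 entries. *prg-1* had 3, 34, 29 and 29 in the same order, and *prde-1* had 2, 18, 12 and 14. *tofu-5* had 2 thresholded entries beside the counts given above, and *tofu-4* had none. A thresholded summit lay within 20 kb of 4 of the 5 genes, beside 48.0% of protein-coding genes. All 5 had an entry within that distance in the pooled list, beside 87.1%, in replicate 1, beside 92.4%, and in replicate 2, beside 95.2%. Over all protein-coding genes the median was 0 in the thresholded and 9 in the pooled list.

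Counts as high as at *snpc-4* were found at a small share of genes. The strain carries a transgene copy of *snpc-4*, so its counts may not be on a par with those of other genes. Whether the copy altered them was not tested. At least 5 thresholded entries lay within 20 kb of 518 protein-coding genes (2.59%), and at least 35 pooled entries around 715 (3.58%). For the *prg-1* counts the numbers were 1880 genes (9.41%) and 759 genes (3.80%), and for the 25 pooled entries of *tofu-5* there were 1792 (8.97%). The 18 pooled entries of *prde-1* were reached by 4212 genes (21.1%). The 5 highest pooled counts, 70 to 73, were all on chromosome IV, at *Y67A10A.7*, *clc-8*, *H25K10.1*, *dmd-6* and *paqr-3*. *snpc-4* was thus well below these 5 chromosome IV neighbourhoods. Its count differed from that of *prg-1* by 1 entry in the pooled list and was the same, 29, in replicate 1. The counts were 5 against 3 in the thresholded list and 37 against 29 in replicate 2.

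**Figure D3:**
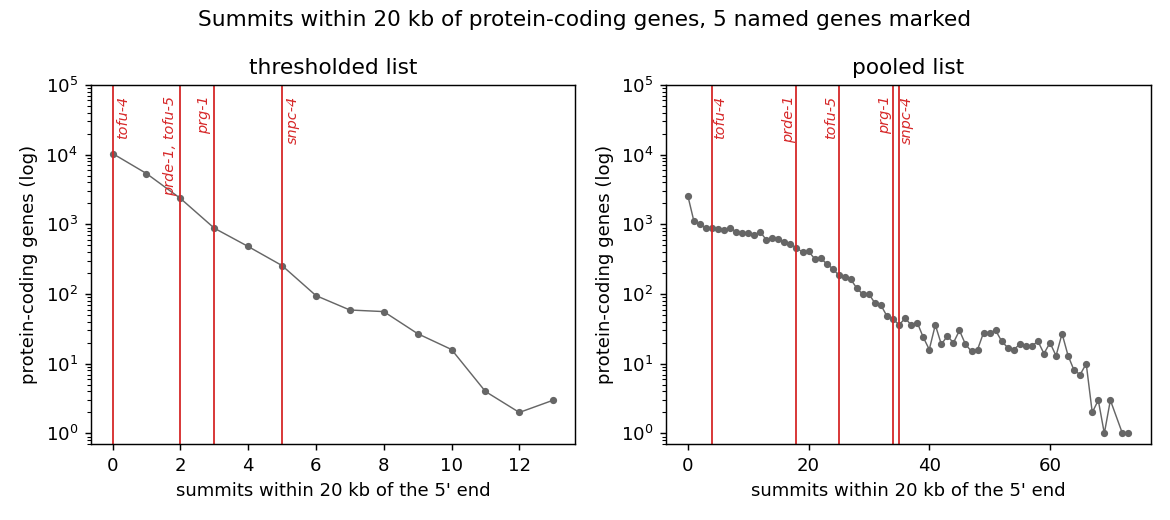
Number of protein-coding genes (vertical, log scale) by the number of summits within 20 kb of their 5′ end, in the thresholded list (left) and the pooled list (right), with red lines at the 5 named genes. *snpc-4* lies at 5 and 35 and *prg-1* at 3 and 34, while the highest pooled count is 73.

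Entries also lay inside the genes. The limit set by the transgene copy of *snpc-4* holds for its values here and in the 10 kb windows below. The pooled list put 8 summits inside *snpc-4*, 2.10 per kb, and 8 inside *prg-1*, 2.63 per kb, beside a mean of 0.290 per kb over protein-coding genes. As dense or denser in the pooled list were 1.22% of the genes for *snpc-4* and 0.531% for *prg-1*. Both genes were above the mean in each replicate as well, with 1.58 and 1.31 per kb in *snpc-4* and 1.65 and 2.63 per kb in *prg-1*. *prde-1* had 2 pooled summits in its body, and *tofu-4* and *tofu-5* had 0.

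In the first 10 kb downstream of the 5′ end, *snpc-4* had 17 pooled entries, 14 in replicate 1 and 12 in replicate 2. Of 10030 consecutive windows of 10 kb across the genome, 0.987% held as many as 17 pooled entries, and 2.14% and 2.08% held as many as the replicates did. These windows were not placed at the 5′ ends of genes, so they are no matched comparison. *prg-1* had 13, 13 and 12 in the same stretch, and 3.34% of windows held as many pooled entries. In the 10 kb upstream of *snpc-4* there were 7 pooled entries, 7 in replicate 1 and 10 in replicate 2, so that the contrast with the downstream stretch was small in replicate 2. Upstream of *prg-1* all 3 lists had 7. Farther downstream of *snpc-4* the lists differed: from 30 to 50 kb the bins of 10 kb held 1 and 2 pooled entries, 6 and 4 in replicate 1 and 2 and 6 in replicate 2.

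**Figure D4:**
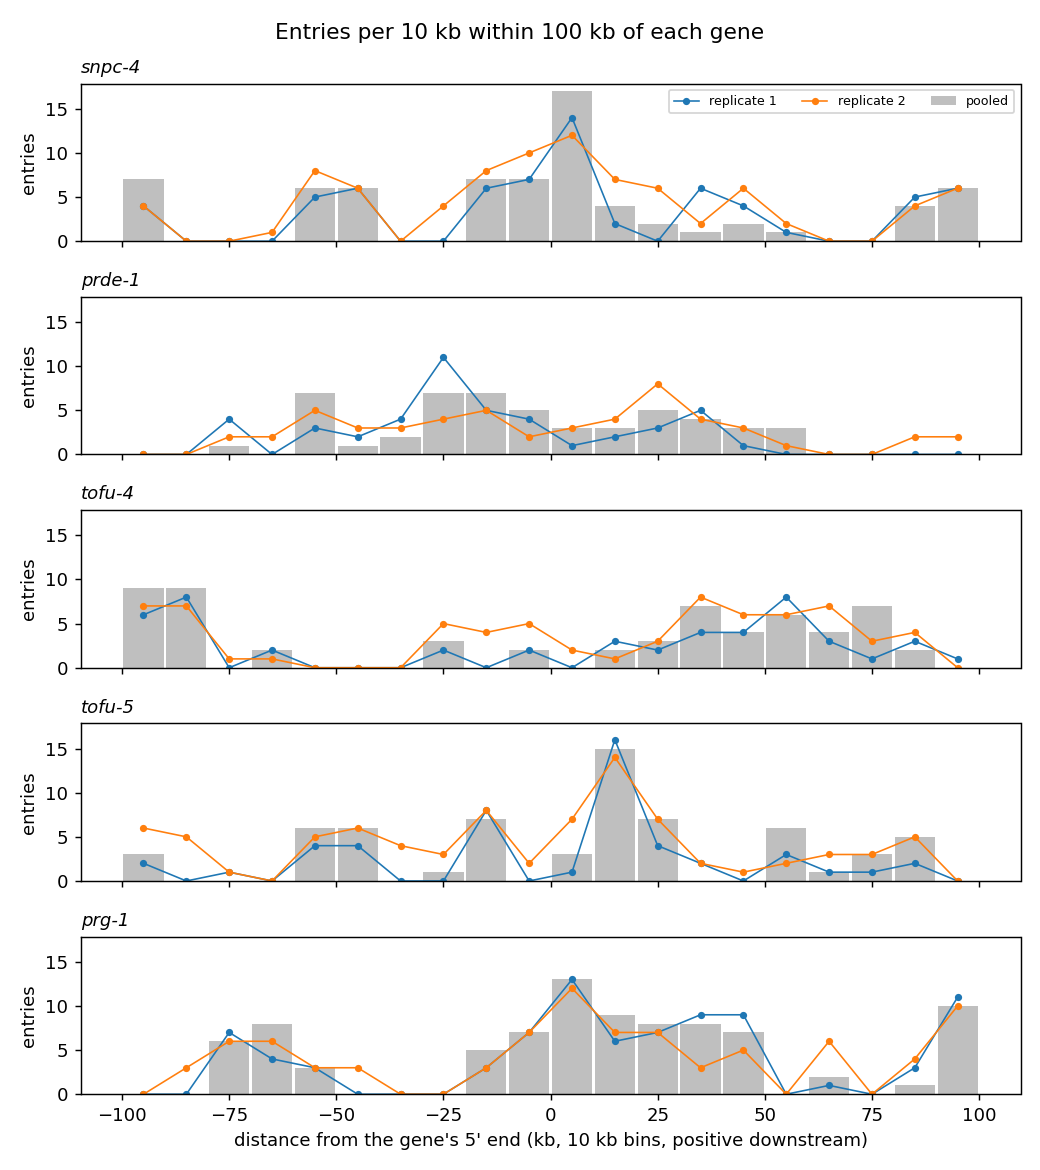
Entries per 10 kb bin within 100 kb of the 5′ end of each of the 5 genes, with grey bars for the pooled list, blue for replicate 1 and orange for replicate 2. The highest pooled bin at *snpc-4*, with 17 entries, is the one that starts at the 5′ end, and at *tofu-5* it is the one from 10 to 20 kb downstream, with 15.

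All 12 thresholded peaks within 20 kb of the genes had an entry in both replicate lists. The share over all thresholded peaks was not computed, so this count is no measure of reproducibility. The replicate lists are long, with 27573 and 30000 entries, and 1 of the matches ranked only 12665 of 30000. The overlapping pair at *prg-1* shares its replicate 1 entry, so that the 12 peaks are not 12 separate observations there. The replicates' signals are not known to be on the same scale, so nothing is concluded from a difference in their levels. In position, 6 of the 12 lay outside protein-coding genes and 3 within 100 bp of the start of a tRNA gene. Neither share was computed over all thresholded peaks, so these positions are not known to be particular to the 5 genes. No snRNA, snoRNA or microRNA gene lay within 20 kb of any of the 5 genes, and piRNA genes numbered 1 near *tofu-5* and 1 near *prg-1*. Of all pooled entries within 20 kb, thresholded ones included, 18 of 35 around *snpc-4* (51.4%) were shared by both replicates, 12 of 34 around *prg-1* (35.3%) and 6 of 18 around *prde-1* (33.3%).

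**Figure D5:**
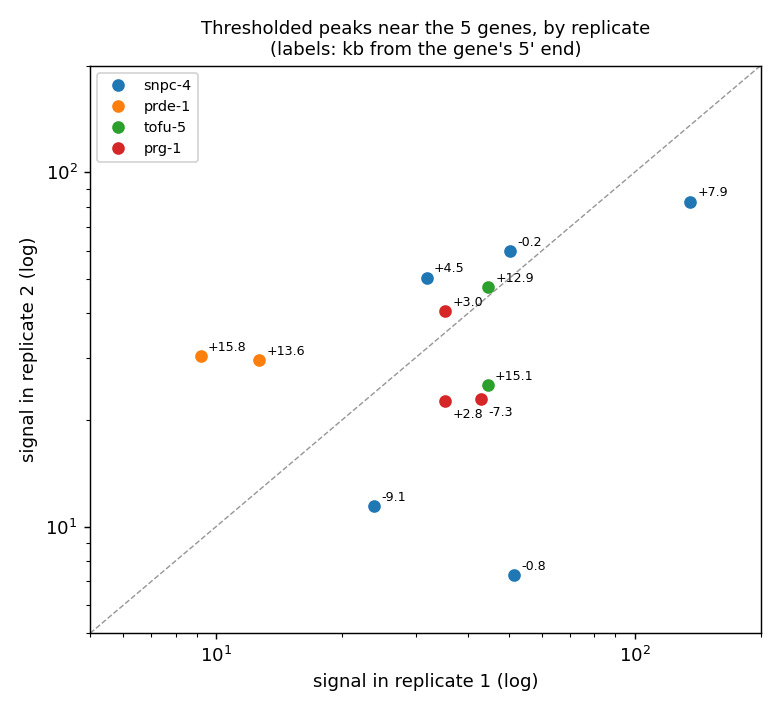
Signal of the 12 thresholded peaks within 20 kb of *snpc-4*, *prde-1*, *tofu-5* and *prg-1* in replicate 1 (horizontal) and replicate 2 (vertical), both on log scales, labelled with the distance in kb from the gene's 5′ end. The dashed line marks equal numbers, though the lists may differ in scale, and the point farthest from it is the *snpc-4* peak at 51.4 and 7.29.

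A wider list of 28 piRNA and SNAPc genes was read in the same way, and 27 of its names were found in the annotation. The 27 include the pseudogenes *prg-2* and *snpc-3.3*, whereas the shares beside their counts are over protein-coding genes alone. *prg-2* is among the 3 with a thresholded summit, so the sets compared are not alike. Within 500 bp, 3 of 27 (11.1%) had a thresholded summit, beside the 5.46% of all protein-coding genes, 15 had a pooled one, beside 30.0%, 17 a replicate 1 entry, beside 29.8%, and 19 a replicate 2 entry, beside 32.8%. The Piwi gene *prg-2*, annotated as a pseudogene (chrIV:6526962-6529802, minus strand), had the strongest signal, 103.2, with its summit 217 bp upstream and with 76.9 and 24.6 in the replicates. *slfl-4*, for a subunit of the piRNA precursor-cleaving complex PUCH (chrIV:5274531-5276114, plus strand), had 88.6 (replicates 64.2 and 44.0) at 182 bp upstream, in an intron of *F36H12.17*. *snpc-3.4*, a gene for a SNAPc subunit (chrIII:4020037-4021883, plus strand), had 69.2 (replicates 39.7 and 35.9) at 21 bp upstream. On chromosome IV, home of *prg-2* and *slfl-4*, 8.90% of protein-coding genes had a thresholded summit within 500 bp.

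The sequences under these 3 summits are shown because they are the promoter peaks of the wider list that passed the authors' threshold, with the 21 bases around the summit in capitals. They are from the RefSeq ce11 assembly, 5′ to 3′ on the strand of the gene, at chrIV:6529959-6530079 (minus), chrIV:5274289-5274409 (plus) and chrIII:4019956-4020036 (plus, ending at the base before the annotated gene).
prg-2 peak: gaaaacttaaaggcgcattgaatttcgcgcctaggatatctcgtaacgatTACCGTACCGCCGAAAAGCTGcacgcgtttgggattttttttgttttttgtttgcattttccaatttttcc
slfl-4 peak: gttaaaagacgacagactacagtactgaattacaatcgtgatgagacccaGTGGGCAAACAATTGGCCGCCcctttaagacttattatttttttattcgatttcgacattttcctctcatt
snpc-3.4 peak: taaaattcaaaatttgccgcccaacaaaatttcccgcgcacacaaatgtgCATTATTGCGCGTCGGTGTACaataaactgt

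Just under the threshold of 41.5 stood *pid-3* with a pooled signal of 41.1 (replicates 20.3 and 21.5). *pid-3* and *tofu-6*, at 38.2 (replicates 21.3 and 12.03), encode subunits of the PETISCO complex that processes piRNA precursors. *ints-11*, the gene of the Integrator endonuclease, had 31.97 (replicates 14.9 and 19.0). These 3 genes were named after their values were seen. Words that occur once made up under 80% of the 500 bp on either side of the 5′ end at *tofu-1* (76.3%), *snpc-3.2* (49.7%), *snpc-3.1* (30.7%) and the pseudogene *snpc-3.3* (23.3%), so their entries, or the lack of them, are uncertain. For *snpc-1.1* and the chromatin remodeller gene *isw-1*, also named after their values were seen, both replicates had an entry within 500 bp but the pooled list had none. The signals were 32.8 and 21.5 at *snpc-1.1* and 25.6 and 29.7 at *isw-1*.

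A pair of 8-base words was searched on both strands, each the most common word upstream of a class of SNPC-4 target genes. The word CTGTTTCA occurs 25 to 70 bp upstream of 5104 of 14714 chromosome IV piRNA genes (34.7%), and CGGAACCC occurs 25 to 100 bp upstream of 31 of 129 snRNA and spliced leader genes (24.0%). In windows from 250 bp before to 50 bp after the 5′ end, neither word was found at the 5 genes, nor at the 25 protein-coding genes of the wider list. Of all protein-coding genes 2.32% had the first word there and 0.265% the second. Neither was found within 150 bp of the 13 thresholded summits named for the 5 genes or of the 3 for the wider list. Of all nuclear thresholded summits 7.33% had the first word and 7.38% the second. A missing word says only that these letters are not in the window.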

How the data were processed

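SNPC-4 was measured by ChIP-seq in 2 biological replicates of 1 group. The deposited files used here were narrowPeak lists on ce11, 1 thresholded by IDR and 3 that served as input for IDR (pooled, replicate 1 and replicate 2), per the labels of the files. Each entry of the deposited lists has a signal, an enrichment value on a scale that the labels do not state. The deposited lists also hold the −log10 q value, constant at 3.59 in the thresholded list and therefore not used for ranking, and the summit as bases from the start of the interval. Not given in the sources used here were the aligner, peak caller, control and IDR threshold, and lists on ce10 were not used. Read counts were not used, so no depth or counting error is given.

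Gene positions came from Ensembl release 115 (WBcel235, which is ce11) and symbols from RefSeq, matched by WormBase identifier. The 5′ end was the outermost transcript start, and distances are from it, along the gene's strand. A replicate entry matched a peak within 200 bp, the nearest one counting. Uniqueness was the share of 32-base words occurring once in the reference genome, which does not hold the transgene, with under 80% called uncertain. No statistical test was made, because 1 group offers no comparison of samples. Shares over all protein-coding genes or over windows of 10 kb stand beside the counts. The upstream windows searched for common words were chosen after the data were seen. The window counting was tested on simulated data. Python 3.11.15, numpy 2.4.6, pandas 2.3.3 and matplotlib 3.10.9 were used.

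The genes and lists were chosen with earlier results of these data known. The text names the 5 genes whatever their values, genes of the wider list with a thresholded summit within 500 bp or among the 3 strongest pooled signals, the nearest genes at peaks within 20 kb, each gene's nearest thresholded peak, and the 5 genes with most pooled summits within 20 kb where *snpc-4* is not among them. Outside this rule, *pid-3*, *tofu-6*, *ints-11*, *snpc-1.1* and *isw-1* were named after their values were seen, as were the genes of the wider list with few unique words. Alternatives were other windows, interval overlap, RefSeq 5′ ends, stronger peaks alone and each replicate alone.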

Additional observations from a re-analysis of the deposited data

How the results depend on the processing

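For 15 results, 75 alternatives were computed, of which 54 stayed within 1.5 times the count or within the spread between replicates and 21 moved beyond it. A wide spread between replicates lets larger shifts in distance count as unmoved, so this tally is no measure of robustness. No paired analysis was possible because there was 1 group. *snpc-4* as the 1 gene with a thresholded summit within 500 bp held under every alternative run, the replicates alone included. With the strongest 2345 pooled entries, the 3 genes with a pooled summit fell to 1 and the 35 pooled entries around *snpc-4* to 5. Those entries are the thresholded list itself, so both values repeat its results by construction, though they are counted among the 21. Among thresholded peaks at or above the list's median signal, the 5 peaks around *snpc-4* fell to 3. By interval overlap the nearest thresholded peak lay 36499 bp from *tofu-4* and 12677 bp from *tofu-5*, since the edge of an interval replaces its summit. The strongest 2345 entries of 1 replicate gave another nearest entry at some of the genes, while at *tofu-4* the site stayed the same. The lowest and highest values with either replicate left out were 1 and 1 gene with a thresholded summit, 3 and 4 genes with a pooled summit, 4 and 5 thresholded and 29 and 37 pooled entries around *snpc-4*, and signals of 82.5 and 135.8 for its strongest peak. For the nearest summit they were -196 and -17 bp at *snpc-4* (negative upstream; signal 23.9 and 50.4), -26463 and 13657 bp at *prde-1* (29.5 and 65.2), 36582 and 36618 bp at *tofu-4* (50.01 and 65.7), 10016 and 10186 bp at *tofu-5* (32.6 and 37.1) and 1241 and 3014 bp at *prg-1* (24.2 and 35.3). For *prde-1* the nearest peak thus lay on the other side without replicate 2. Signals of 1 replicate are on another level than pooled ones by construction. The cause of the other moves was not tested. Unknown depth limits every statement on a missing entry, which may be below what these libraries could show.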

Other observations

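The lack of a pooled entry at *snpc-1.1* and *isw-1* belonged to a small class of sites, which was looked for after these values were seen. The 2345 strongest entries of each replicate had 1211 sites in common within 200 bp. At 28 of them (2.31%) the pooled list had no summit within 500 bp, and no pooled interval covered any of the 28. On the X chromosome lay 15 of the 28 (53.6%), beside 178 of the 1211 (14.7%). The nearest gene was a tRNA gene at 13 of the 28 (46.4%), beside 155 of the 1211 (12.8%), and 10 of the 28 were both on X and nearest to a tRNA gene. The strongest in replicate 1 lay 61 bp upstream of the noncoding RNA gene *yrn-1* on chromosome IV, with signals of 88.1 and 64.3 in the replicates. In replicate 2 others of the 28 were stronger, up to 71.3. The tRNA gene *W02H3.t1* on X had 57.1 and 52.3, and *K12H4.t1* on chromosome III had 47.4 and 57.6. All 28 are also missing from the thresholded list, whose entries are all pooled entries, so a count taken from that list alone does not include them. Why they have no pooled entry was not tested.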
